A study of Sus scrofa with 30 samples.

Results

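NICCs (neonatal porcine islet cell clusters) matured for 5 days with fetuin-A are compared here directly with NICCs matured for 5 days with SB431542, an inhibitor of the TGF-beta type I receptor kinase. The libraries were chosen by their treatment and culture day labels: 4 libraries labelled Fet-A and 4 labelled HSA + SB, together 8 of the 24 libraries of the series. NICCs were made from piglets aged 2 to 12 days, for the fetuin-A transcriptomes from animals of 4 days (n = 2) and of 12 days (n = 2), and sampled at culture day 6 (maturation d1) or culture day 10 (maturation d5). HSA/d1 and HSA/d5 are clusters in medium with human serum albumin at 0.6 mg/ml, HSA + SB/d5 had the same medium with SB431542 at 10 µmol/l, and in Fet-A/d5 human fetuin-A at 0.6 mg/ml took the place of the albumin. The 2 treatments compared therefore differ both in the inhibitor and in the protein of the medium, and the direct comparison alone does not separate what either contributes to a difference. HSA/d5 differs from each treatment in only 1 of them and is set beside both further below. HSA + LDN/d5 and HSA + SB + LDN/d5, with a further addition labelled LDN whose identity and dose are not given in the sources used here, serve below as a separate pair with and without SB431542. NICCs are mixed clusters, so each library is a bulk measure over endocrine, duct, acinar, mesenchymal, endothelial and other cells.

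Activins and TGF-beta bind pairs of type I and type II receptor kinases, which pass the signal on through SMAD2 and SMAD3 to target genes that include brakes on the same pathway, such as SMAD7 and SKIL. SB431542 blocks the kinases of the type I receptors TGFBR1, ACVR1B and ACVR1C. Fetuin-A is a plasma glycoprotein made by the liver that can bind TGF-beta family ligands and can present fatty acids to the innate immune receptor TLR4.

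Endocrine identity was checked first. GCG, the glucagon gene, had 1363, 974, 8307 and 3977 CPM with Fet-A and 14937, 11496, 16949.8 and 18985 CPM with HSA + SB in library sets 1 to 4. CPM are counts scaled to a common library total after normalisation, and a set holds the libraries with the same place in the order of library numbers, 1 from each condition. INS, the insulin gene, had 263, 135, 1752 and 883 CPM with Fet-A and 1562, 997, 3024 and 4548 CPM with HSA + SB in the same order. Both hormones were thus read in all 8 libraries. PDX1 has no matching symbol in the table and was not analysed here. Markers of duct cells were also plentiful, with SPP1 the most abundant gene of that list, at a mean of 4743 CPM with Fet-A and 3019 CPM with HSA + SB. Total counts were 22825355, 22226276, 19977457 and 19758438 with Fet-A and 24346119, 19533939, 21138368 and 20269909 with HSA + SB. Along the first principal component of log2 CPM, which held 54.0% of the variance of the 8 libraries, all 4 Fet-A libraries lay on one side and all 4 HSA + SB libraries on the other. Along the next, with 21.9%, sets 1 and 2 lay apart from sets 3 and 4 in both treatments. The labels do not give the age of the animals behind a library, so whether this division is one of age was not tested.

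Of 14842 genes tested, 1008 (6.79%) were lower and 514 (3.46%) higher with Fet-A than with HSA + SB, counted at a change over 2-fold and an adjusted p below 0.05. The calls of each gene list below are to be read beside these shares. Throughout, a negative log2 fold change means lower with Fet-A, and ± gives the standard error. Genes lower with Fet-A had a median log2 fold change of -1.62 and genes higher had one of 1.44, beside 0.0039 over all genes tested. Over 4-fold changes numbered 318 among the lower and 129 among the higher genes. Of the 1008, 994 were lower with Fet-A in each of the 4 sets, and 499 of the 514 were higher in each; being called on these same libraries, both were selected for such agreement. The called genes were low in abundance, with a median of 5.48 CPM for the lower and 5.54 CPM for the higher ones, beside 24.3 CPM over all genes tested.

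**Figure D1:**
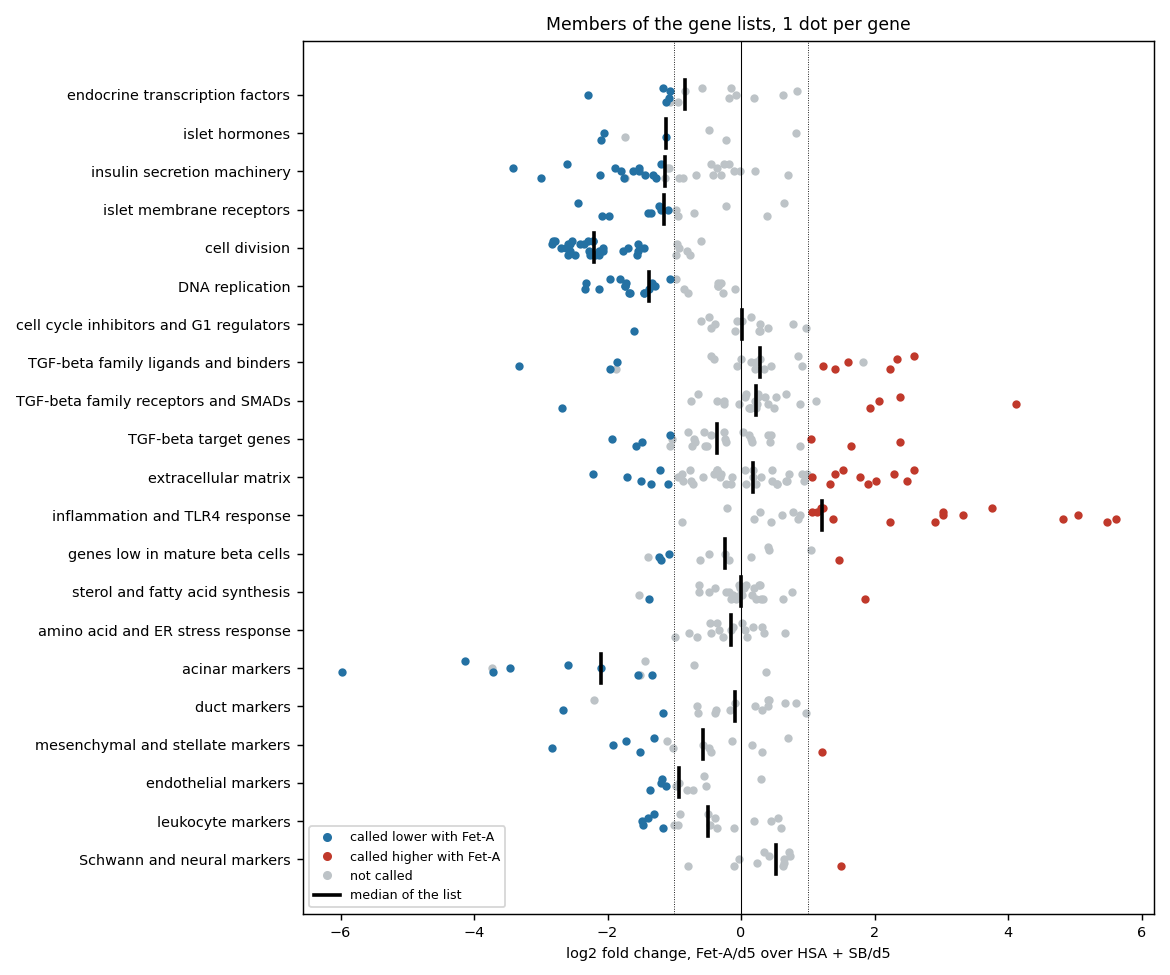
Log2 fold change of Fet-A/d5 over HSA + SB/d5 for each tested member of the 21 gene lists, 1 dot per gene, coloured by call, with the median of each list as a black bar and dotted lines at 2-fold. Cell division lies farthest to the left with acinar markers (medians -2.20 and -2.10), and inflammation and TLR4 response farthest to the right (median 1.21).

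Part of the islet hormone genes were lower with Fet-A. Of 10 symbols on the hormone list, 8 were found and 7 tested, of which 3 were lower with Fet-A: GCG, SST and TTR. The median log2 fold change of the 7 was -1.13, beside 0.00 over all genes. In bulk RNA, fewer cells of a type and less RNA per cell cannot be told apart. GCG fell, with a log2 fold change of -2.09 ± 0.44 (adjusted p = 8.70e-04, edgeR's quasi-likelihood test with Benjamini-Hochberg adjustment). All 4 HSA + SB libraries exceeded all 4 Fet-A libraries in GCG, and the set 3 library was the highest of its Fet-A group. SST, the somatostatin gene, had 798, 538, 1425 and 641 CPM with Fet-A and 1722, 1839.8, 2206 and 1654 CPM with HSA + SB. Its 4 Fet-A libraries were again below its 4 HSA + SB libraries, with a log2 fold change of -1.13 ± 0.22 (adjusted p = 4.00e-04, edgeR's quasi-likelihood test with Benjamini-Hochberg adjustment). Without the Fet-A library of set 2 the log2 fold change of SST was -0.96 and the call was lost. TTR, which encodes the carrier transthyretin made in alpha cells, had 51.4, 44.8, 111 and 55.6 CPM with Fet-A and 308, 340.3, 228 and 208 CPM with HSA + SB. No TTR value overlapped between the treatments, and its log2 fold change was -2.05. INS was lower with Fet-A within every set (log2 differences -2.57, -2.89, -0.79 and -2.37), but the groups overlapped, since the Fet-A library of set 3 lay above the HSA + SB libraries of sets 1 and 2. INS was not called, with a log2 fold change of -1.74 ± 0.82 (adjusted p = 0.0982, edgeR's quasi-likelihood test with Benjamini-Hochberg adjustment). Without the Fet-A library of set 3 it was called lower, at a log2 fold change of -2.57. With the library set as a block, INS had a log2 fold change of -2.03 ± 0.33 (adjusted p = 3.08e-05, edgeR's quasi-likelihood test with Benjamini-Hochberg adjustment; 3.08e-05 to 1 over the 17 alternatives). Here and below, these alternatives include the Wald test of DESeq2 and glmTreat, which tests against a 2-fold change rather than against no change. Such a range therefore mixes the adjusted p of different tests. The summed level of the 8 hormone genes found in the table was 2794, 1808, 12111 and 5899.6 CPM with Fet-A and 19082, 14892, 22898 and 25918 CPM with HSA + SB in sets 1 to 4, with every Fet-A library below every HSA + SB library.

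Transcription factors that specify endocrine cells were lower in part. Of 18 symbols, 15 were tested and 5 were lower with Fet-A, with a list median of -0.84. MAFA, a late activator of insulin transcription, had 0.537, 0.04700, 0.957 and 0.827 CPM with Fet-A and 1.48, 1.18, 3.63 and 5.303 CPM with HSA + SB. Each Fet-A library was below each HSA + SB library, the set 2 library being the lowest. MAFA had a log2 fold change of -2.29 ± 0.82 (adjusted p = 0.03198, edgeR's quasi-likelihood test with Benjamini-Hochberg adjustment). NEUROD1, which acts earlier in endocrine differentiation, had 22.8, 12.1, 63.2 and 35.8 CPM with Fet-A and 57.1, 49.7, 82.4 and 89.8 CPM with HSA + SB. Its groups overlapped through the Fet-A library of set 3, although each set was lower with Fet-A (log2 differences -1.32, -2.03, -0.38 and -1.32). The log2 fold changes of NEUROD1, PAX6 and ISL1 were -1.06, -1.17 and -1.08. The calls of these genes rest on few libraries. MAFA, NEUROD1, PAX6 and ISL1 all ended without the Fet-A library of set 1, without that of set 2, or without the HSA + SB library of set 3, and all but ISL1 ended without the HSA + SB library of set 4. In the fits that ended its call, the log2 fold change was -0.97 to -0.78 for NEUROD1, -1.03 to -0.90 for PAX6, -0.98 to -0.81 for ISL1 and -2.25 to -1.83 for MAFA. Over these fits the adjusted p of the 4 genes was 0.0522 to 0.106 (edgeR's quasi-likelihood test with Benjamini-Hochberg adjustment). Without the Fet-A library of set 3 ISL1 had a log2 fold change of -1.67. With the 2 treatments fitted on their own, 1 member of the list was called, and with the library set as a block 7 members were.

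**Figure D2:**
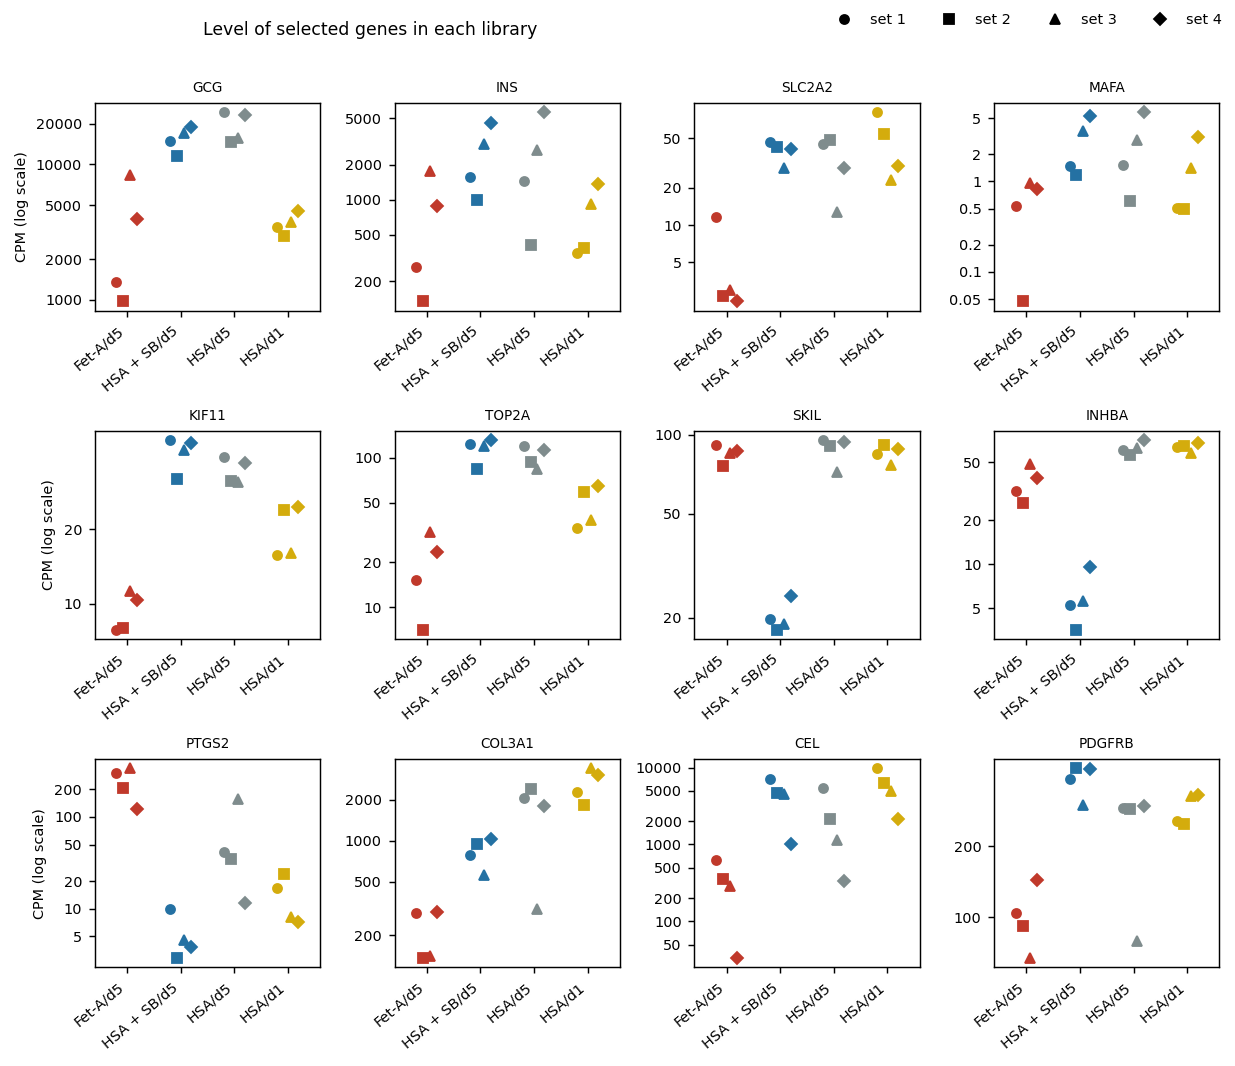
Level of 12 genes in each library on a log axis (CPM), with colours for Fet-A/d5, HSA + SB/d5, HSA/d5 and HSA/d1 and symbol shapes for library sets 1 to 4. KIF11 and GCG show Fet-A/d5 below the other d5 groups, while SKIL and INHBA show HSA + SB/d5 below them.

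Genes of insulin granules, glucose sensing and exocytosis were also lower in part. Of 36 symbols 31 were tested, and 14 were lower with Fet-A, with a median of -1.15. Within sets 1 to 4 that median was -1.55, -1.90, -0.50 and -1.48, so that set 3 had the smallest difference. SLC2A2, the glucose transporter of beta cells, had 11.7, 2.68, 3.02 and 2.43 CPM with Fet-A and 46.8, 42.9, 28.8 and 41.3 CPM with HSA + SB. The Fet-A library of set 1 stood above the other Fet-A libraries and still below all HSA + SB libraries, and SLC2A2 fell, with a log2 fold change of -3.00 ± 0.51 (adjusted p = 9.77e-05, edgeR's quasi-likelihood test with Benjamini-Hochberg adjustment). PCSK1, a convertase that processes proinsulin, had 56.03, 44.04, 159.5 and 148 CPM with Fet-A and 458, 355, 709 and 968 CPM with HSA + SB. Every Fet-A library lay below every HSA + SB library, with a log2 fold change of -2.61 ± 0.48 (adjusted p = 2.13e-04, edgeR's quasi-likelihood test with Benjamini-Hochberg adjustment). The companion convertase PCSK2 had 104, 54.8, 380.4 and 194 CPM with Fet-A and 496, 389, 759.9 and 827 CPM with HSA + SB, and its highest Fet-A library, in set 3, was just below its lowest HSA + SB library, in set 2. PCSK2 had a log2 fold change of -1.75. The zinc transporter of insulin granules, SLC30A8, had a log2 fold change of -2.12, with the Fet-A library of set 3 above the HSA + SB library of set 2. ERO1B, an oxidase for proinsulin folding in the endoplasmic reticulum, had 22.3, 18.6, 25.9 and 18.2 CPM with Fet-A and 95.5, 70.5, 64.8 and 65.4 CPM with HSA + SB. It was low in all 4 Fet-A libraries, with a log2 fold change of -1.80 ± 0.26 (adjusted p = 1.72e-05, edgeR's quasi-likelihood test with Benjamini-Hochberg adjustment). The granule proteins VGF and PTPRN fell with log2 fold changes of -1.88 and -1.44, neither with overlapping groups.

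G6PC2, an islet glucose-6-phosphatase, had 0.0448, 0.04700, 0.151 and 2.89 CPM with Fet-A and 4.44, 1.53, 12.4 and 14.2 CPM with HSA + SB. Its Fet-A libraries of sets 1 to 3 were near 0, and that of set 4 was above the HSA + SB library of set 2. The log2 fold change was -3.41, and -6.59 without that set 4 library. Without the Fet-A library of set 2 it was -3.01 (adjusted p = 0.0521, edgeR's quasi-likelihood test with Benjamini-Hochberg adjustment) and the call was lost, as it was with the 2 treatments fitted on their own. Several other secretion genes named by the study were not called between the 2 treatments in the fit over all libraries. The study named them for fetuin-A against albumin, a different comparison. Against HSA/d5, ABCC8 had log2 fold changes of -1.90 in Fet-A/d5, called lower, and -0.75 in HSA + SB/d5, not called. GJD2 had -1.65 and 0.09 there, neither called. ABCC8, a subunit of the ATP-sensitive potassium channel, had a log2 fold change of -1.15 ± 0.54 (adjusted p = 0.0974, edgeR's quasi-likelihood test with Benjamini-Hochberg adjustment). Blocking by library set gave ABCC8 a log2 fold change of -1.29 ± 0.25 (adjusted p = 1.86e-04, edgeR's quasi-likelihood test with Benjamini-Hochberg adjustment; 1.86e-04 to 1 over the 17 alternatives). Without the Fet-A library of set 3 ABCC8 was called lower too, at -1.93. For SYT13, a synaptotagmin-like protein, the values were a log2 fold change of -1.08 without the block and, with it, a log2 fold change of -1.18 ± 0.21 (adjusted p = 1.10e-04, edgeR's quasi-likelihood test with Benjamini-Hochberg adjustment; 1.10e-04 to 1 over the 17 alternatives). The gap junction gene GJD2 had -1.74 without the block, also not called, and with it a log2 fold change of -1.89 ± 0.26 (adjusted p = 6.41e-06, edgeR's quasi-likelihood test with Benjamini-Hochberg adjustment; 6.41e-06 to 0.874 over the 17 alternatives). SYT13 and GJD2 were also called lower without the Fet-A library of set 3 (log2 fold changes -1.66 and -2.70) or the HSA + SB library of set 2 (-1.25 and -2.005). The Wald test of DESeq2, without the block, called SYT13 and GJD2 lower as well. The fusion protein SNAP25 (-0.93) and the calcium sensors SYT7 (-0.87) and SYT4 (-0.26, log2 fold changes) were not called with or without the block. SYT7 was called lower without the Fet-A library of set 3 (-1.19) or the HSA + SB library of set 2 (-1.03), and SNAP25 without the HSA + SB library of set 1 (-1.07) or 2 (-1.07).

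Receptors at the islet cell surface were 14 of 16 tested, of which 8 were lower with Fet-A (median -1.15). GPR119, a lipid receptor that raises cyclic AMP, had 0.582, 0.282, 2.72 and 0.672 CPM with Fet-A and 5.14, 4.19, 8.43 and 5.26 CPM with HSA + SB. Even its highest Fet-A library, in set 3, stayed below the HSA + SB group, with a log2 fold change of -2.44 ± 0.44 (adjusted p = 2.09e-04, edgeR's quasi-likelihood test with Benjamini-Hochberg adjustment). ADCYAP1R1, the receptor of the neuropeptide PACAP, had 3.94, 3.53, 3.62 and 2.69 CPM with Fet-A and 16.5, 18.8, 9.78 and 9.56 CPM with HSA + SB and fell, with a log2 fold change of -1.98. The prolactin receptor gene PRLR had 1.57, 1.08, 4.93 and 3.26 CPM with Fet-A and 10.2, 7.88, 14.2 and 13.3 CPM with HSA + SB, with non-overlapping groups and a log2 fold change of -2.08. The glucagon receptor GCGR and the calcium-sensing receptor CASR fell with log2 fold changes of -1.23 and -1.35.

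Mitotic genes were lower with Fet-A. Of 40 symbols on the cell division list 36 were tested, all 36 were lower with Fet-A in each of the 4 sets, beside 30.8% of all genes tested, and 30 were called lower. Their median log2 fold change was -2.20, and within the sets it was -2.53, -2.70, -1.64 and -2.14. KIF11, a motor of the mitotic spindle, had 7.84, 7.99, 11.2 and 10.3 CPM with Fet-A and 45.8, 31.9, 41.9 and 44.5 CPM with HSA + SB. The Fet-A libraries were close to each other and far below the HSA + SB libraries, and KIF11 fell, with a log2 fold change of -2.13 ± 0.16 (adjusted p = 1.13e-08, edgeR's quasi-likelihood test with Benjamini-Hochberg adjustment). CDK1, the kinase that drives entry into mitosis, had 4.03, 2.02, 6.897 and 5.32 CPM with Fet-A and 27.1, 22.4, 30.3 and 29.96 CPM with HSA + SB. Its lowest value was in the Fet-A library of set 2, and it fell, with a log2 fold change of -2.59 ± 0.24 (adjusted p = 9.95e-08, edgeR's quasi-likelihood test with Benjamini-Hochberg adjustment). TOP2A, the topoisomerase that untangles replicated DNA, had 15.2, 7.097, 31.6 and 23.4 CPM with Fet-A and 123, 84.5, 119 and 130.3 CPM with HSA + SB, again with the groups apart and a log2 fold change of -2.56. CENPA, the histone variant of centromeres, had 0.985, 0.705, 3.93 and 2.38 CPM with Fet-A and 16.1, 10.9, 15.4 and 12.4 CPM with HSA + SB, with a log2 fold change of -2.79. For the kinetochore proteins CENPE and CENPF the log2 fold changes were -2.20 and -1.77, and for FOXM1, a transcription factor for genes of the late cell cycle, -2.30. TPX2 and RACGAP1, which act in spindle assembly and cytokinesis, fell, with log2 fold changes of -2.07 and -1.56. MELK, a kinase of dividing cells, had -2.07. Over the 36 genes the summed level was 287, 238, 412 and 342 CPM with Fet-A and 1096, 817, 1069.6 and 1113 CPM with HSA + SB in sets 1 to 4. The corresponding means were 948 CPM in HSA/d5 and 607 CPM in HSA/d1, so the Fet-A group had the lowest sum of the 4 groups.

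DNA replication genes were also lower in part with Fet-A. Of 31 symbols 25 were tested and 16 were lower with Fet-A, with a median of -1.39; MCM5 had no read in any of the 8 libraries. GINS1, a subunit of the replicative helicase complex, had 6.897, 6.16, 8.46 and 9.51 CPM with Fet-A and 27.9, 22.8, 26.8 and 25.8 CPM with HSA + SB. The groups were far apart, with a log2 fold change of -1.74 ± 0.13 (adjusted p = 9.40e-09, edgeR's quasi-likelihood test with Benjamini-Hochberg adjustment). MCM4, of the same helicase, had 27.2, 27.1, 35.6 and 32.1 CPM with Fet-A and 89.2, 71.3, 83.3 and 75.2 CPM with HSA + SB. It fell, with a log2 fold change of -1.39 with a standard error of 0.11. CDC6, which loads that helicase onto origins, and CLSPN, a replication checkpoint adaptor, had log2 fold changes of -2.12 and -1.67. Regulators of the G1 phase did not share this direction. Their list had 15 of 16 symbols tested, a median of 0.01 and 1 call, the cyclin-dependent kinase inhibitor CDKN2C, which had 7.97, 11.8, 14.3 and 14.9 CPM with Fet-A and 36.8, 28.6, 38.6 and 43.9 CPM with HSA + SB. CDKN2C was low in the Fet-A libraries like the mitotic genes (log2 fold change -1.60). CDKN2A is in the table but had too few reads to be tested. MYC, a growth-promoting transcription factor, had 84.7, 134, 96.5 and 107 CPM with Fet-A and 56.9, 52.3, 48.7 and 56.9 CPM with HSA + SB. All Fet-A libraries were above all HSA + SB libraries, yet MYC had a log2 fold change of 0.97 ± 0.13 (adjusted p = 1.07e-05, edgeR's quasi-likelihood test with Benjamini-Hochberg adjustment) and so stayed under the 2-fold threshold; it passed that threshold without the Fet-A library of set 1 or 3 or without the HSA + SB library of set 1 or 4, with 1.07 as its highest log2 fold change.

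TGF-beta family ligands and their binding proteins moved in both directions. Of 28 symbols 23 were tested, with 6 higher and 3 lower with Fet-A and a median of 0.29. INHBA, which encodes the subunit of activin A, had 32.1, 26.4, 48.8 and 38.9 CPM with Fet-A and 5.31, 3.58, 5.63 and 9.603 CPM with HSA + SB. The lowest Fet-A library exceeded the highest HSA + SB library, with a log2 fold change of 2.60 ± 0.23 (adjusted p = 5.54e-08, edgeR's quasi-likelihood test with Benjamini-Hochberg adjustment). HSA/d5 libraries had 60.3, 55.9, 62.6 and 70.8 CPM of INHBA, above both treatments. FST, the secreted activin antagonist follistatin, had 4.16, 3.48, 5.14 and 5.79 CPM with Fet-A and 1.07, 0.665, 1.16 and 1.003 CPM with HSA + SB. It too had separate groups, and its log2 fold change was 2.24. LTBP1, which tethers latent TGF-beta in the matrix, had a log2 fold change of 1.40, and the stress-induced family member GDF15 one of 1.60. INHBB, the gene of another activin subunit, differed between the treatments in the opposite direction to INHBA. INHBB had 11.6, 8.695, 13.7 and 16.8 CPM with Fet-A and 44.6, 32.6, 45.8 and 61.8 CPM with HSA + SB. Every Fet-A library was below every HSA + SB library, with a log2 fold change of -1.86 ± 0.28 (adjusted p = 2.73e-05, edgeR's quasi-likelihood test with Benjamini-Hochberg adjustment). Against HSA/d5, INHBB had log2 fold changes of -0.44 in Fet-A/d5 and 1.42 in HSA + SB/d5. INHBA had -0.77 and -3.37 there. For both genes only the HSA + SB/d5 value was called. CHRDL1, a BMP antagonist, had 0.0448, 0.188, 0.101 and 0.207 CPM with Fet-A and 1.52, 1.74, 0.838 and 1.48 CPM with HSA + SB and a log2 fold change of -3.33. The ligand BMP5 fell, with a log2 fold change of -1.96.

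Most genes for TGF-beta family receptors, SMADs and their regulators were not called. All 28 symbols were tested, 4 being higher, 1 lower and 23 not called, with a list median of 0.23. SKIL, a repressor of SMAD target genes, had 91.4, 76.1, 84.8 and 86.9 CPM with Fet-A and 19.8, 18.00, 18.95 and 24.2 CPM with HSA + SB. The Fet-A values lay in the range of HSA/d5 (95.2, 90.7, 72.2 and 93.9 CPM), and the HSA + SB values were far below, with a log2 fold change of 2.07 ± 0.11 (adjusted p = 6.09e-10, edgeR's quasi-likelihood test with Benjamini-Hochberg adjustment). PMEPA1, which sequesters SMADs, had 203, 212, 189.7 and 231 CPM with Fet-A and 57.8, 48.99, 49.5 and 63.1 CPM with HSA + SB. HSA/d5 had 459.9, 492, 248 and 476 CPM of PMEPA1, each above the Fet-A libraries. Its log2 fold change between the treatments was 1.93. SMAD7, the inhibitory SMAD, had 14.6, 13.3, 11.6 and 12.1 CPM with Fet-A and 3.37, 2.25, 1.72 and 2.53 CPM with HSA + SB. All Fet-A libraries were above all HSA + SB libraries, with a log2 fold change of 2.38 ± 0.30 (adjusted p = 3.73e-06, edgeR's quasi-likelihood test with Benjamini-Hochberg adjustment). RANBP3L, which exports BMP-responsive SMADs from the nucleus, had 7.39, 4.61, 5.89 and 9.41 CPM with Fet-A and 0.576, 0.102, 0.233 and 0.621 CPM with HSA + SB. HSA/d5 libraries had 0.767, 0.473, 0.7502 and 0.769 CPM of RANBP3L, so here the Fet-A group was the one apart, with a log2 fold change of 4.11 ± 0.43 (adjusted p = 4.14e-07, edgeR's quasi-likelihood test with Benjamini-Hochberg adjustment). ACVR1C, a type I receptor, was the member called lower, with 1.43, 0.658, 2.32 and 1.24 CPM with Fet-A and 10.9, 9.000, 8.33 and 7.93 CPM with HSA + SB and a log2 fold change of -2.68.

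Among target genes of TGF-beta calls went in both directions. Of 34 symbols 28 were tested, with 4 lower, 3 higher and a median of -0.36, beside 6.79% lower and 3.46% higher over all genes tested. CCN2, a matricellular growth factor, had 771, 756, 720.5 and 658 CPM with Fet-A and 199, 229, 260.1 and 236 CPM with HSA + SB. It was high in all Fet-A libraries, with a log2 fold change of 1.65 ± 0.13 (adjusted p = 1.27e-08, edgeR's quasi-likelihood test with Benjamini-Hochberg adjustment). LOX, which crosslinks collagen, had 44.3, 62.7, 38.8 and 44.1 CPM with Fet-A and 7.16, 10.1, 7.22 and 11.99 CPM with HSA + SB and a log2 fold change of 2.38. The fibrillar collagens COL3A1, COL1A2 and COL1A1 moved the other way, with log2 fold changes of -1.93, -1.48 and -1.57. COL3A1 had 292, 137, 141 and 300.1 CPM with Fet-A and 783, 942, 556 and 1030.2 CPM with HSA + SB. All 4 Fet-A libraries lay under the lowest HSA + SB library, that of set 3. SNAI2, a transcription factor of mesenchymal cells, had a log2 fold change of -1.06, which was -0.94 without the Fet-A library of set 3 and -0.88 without that of set 4, and then no longer called. SNAI1, its relative, had 6.27, 3.57, 3.57 and 4.496 CPM with Fet-A and 4.32, 4.09, 4.004 and 5.21 CPM with HSA + SB, with overlapping groups and a log2 fold change of 0.03 that was not called. In HSA/d5 SNAI1 had 13.7, 15.5, 4.81 and 13.3 CPM. TGFBI, an adhesion protein of the matrix, had a log2 fold change of -0.69 and was not called. POSTN, the matrix protein periostin, had -1.03 and was not called either, and blocking by set gave it a log2 fold change of -1.06 ± 0.32 (adjusted p = 0.00811, edgeR's quasi-likelihood test with Benjamini-Hochberg adjustment; 8.58e-05 to 1 over the 17 alternatives). POSTN was also called lower with the 2 treatments fitted on their own, without the block. Against HSA/d5 POSTN had log2 fold changes of -2.53 in Fet-A/d5, called lower, and -1.49 in HSA + SB/d5, not called.

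Matrix genes divided between the directions. Of 52 symbols 47 were tested, 10 were higher and 6 lower with Fet-A, and the median was 0.18. Over all genes tested 3.46% were higher and 6.79% lower. THBS1, an activator of latent TGF-beta, had 418, 619.7, 363 and 373 CPM with Fet-A and 111, 134, 123 and 150.5 CPM with HSA + SB. Its Fet-A libraries lay close to those of HSA/d5 (479.6, 619, 371 and 405 CPM) while the HSA + SB libraries were low, with a log2 fold change of 1.78 ± 0.18 (adjusted p = 2.65e-07, edgeR's quasi-likelihood test with Benjamini-Hochberg adjustment). MMP7, a matrix protease of epithelia, had 2885, 3375, 3337 and 2766 CPM with Fet-A and 565, 895, 890.3 and 682 CPM with HSA + SB, with separate groups and a log2 fold change of 2.03. LAMA3, a chain of epithelial laminin, had 64.4, 62.4, 60.97 and 60.6 CPM with Fet-A and 32.6, 30.4, 27.98 and 28.4 CPM with HSA + SB. The values varied little within each treatment, and the log2 fold change was 1.06. COL8A1, a short-chain collagen, had a log2 fold change of 2.49 between overlapping groups. Against HSA/d5 COL8A1 was called lower in both treatments, at -2.63 in Fet-A/d5 and -5.12 in HSA + SB/d5. Lower with Fet-A were COL6A3 (-2.23), COL6A1 (-1.71) and COL14A1 (-1.49), non-fibrillar collagens, and the protease inhibitor TIMP1 (-1.36; log2 fold changes). COL6A3 had 134, 91.5, 118 and 246 CPM with Fet-A and 622, 782, 536 and 818 CPM with HSA + SB, all Fet-A libraries lying below all HSA + SB libraries.

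Part of the inflammatory genes were higher with Fet-A. Of 31 symbols on the list of inflammation and TLR4 response 24 were tested and 15 were higher with Fet-A, with a median of 1.21. With at least 10 counts asked of every library, 9 members were called higher. CCL2, a chemokine for monocytes, had 46.9, 35.3, 73.5 and 61.2 CPM with Fet-A and 8.43, 5.68, 7.68 and 7.12 CPM with HSA + SB. The Fet-A group was far above the HSA + SB group, with a log2 fold change of 2.90 ± 0.28 (adjusted p = 1.28e-07, edgeR's quasi-likelihood test with Benjamini-Hochberg adjustment). NFKB1, a subunit of the transcription factor NF-kappa-B, had 149, 153, 162 and 149 CPM with Fet-A and 69.4, 74.00, 75.1 and 73.8 CPM with HSA + SB. Its values hardly varied within a treatment, with a log2 fold change of 1.07 ± 0.10 (adjusted p = 1.28e-07, edgeR's quasi-likelihood test with Benjamini-Hochberg adjustment). ICAM1, an adhesion molecule for leukocytes, had 472, 443, 374 and 326 CPM with Fet-A and 87.6, 106, 76.8 and 74.8 CPM with HSA + SB and a log2 fold change of 2.23. PTGS2, the inducible cyclooxygenase, had 303, 208, 337 and 121 CPM with Fet-A and 10.03, 2.91, 4.56 and 3.82 CPM with HSA + SB. Even the lowest Fet-A library, in set 4, was far above the highest HSA + SB library, in set 1, with a log2 fold change of 5.49 ± 0.75 (adjusted p = 1.04e-05, edgeR's quasi-likelihood test with Benjamini-Hochberg adjustment). PTGS2 in HSA/d5 was 41.03, 34.7, 158 and 11.7 CPM, with the set 3 library much above the rest. IL1A, an epithelial alarm cytokine, had 25.4, 16.3, 37.5 and 13.3 CPM with Fet-A and 1.11, 0.358, 0.931 and 0.812 CPM with HSA + SB and a log2 fold change of 4.82. The calgranulin S100A8 had 8.78, 4.89, 6.34 and 2.07 CPM with Fet-A and 0.288, 0.153, 0.186 and 0 CPM with HSA + SB, and its relative S100A12 had 15.1, 7.99, 10.4 and 3.26 CPM with Fet-A and 0.452, 0, 0.186 and 0.0478 CPM with HSA + SB. Both were close to 0 in every HSA + SB library, with log2 fold changes of 5.05 and 5.61. HSA/d5 had 15.7, 16.6, 10.2 and 1.998 CPM of S100A12, a level in which the Fet-A libraries also lay. IL1B has no matching symbol in the table and was not analysed here.

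Genes held low in mature beta cells gave 3 lower and 1 higher of 13 tested among 15 symbols, with a median of -0.24. HK2, a hexokinase of high glucose affinity, had 28.98, 41.8, 33.5 and 28.99 CPM with Fet-A and 11.3, 10.6, 15.1 and 11.3 CPM with HSA + SB. All Fet-A libraries were above all HSA + SB libraries, with a log2 fold change of 1.46 ± 0.34 (adjusted p = 0.00201, edgeR's quasi-likelihood test with Benjamini-Hochberg adjustment). CXCL12, a chemokine of stromal cells, fell, with a log2 fold change of -1.20. FBP1, an enzyme of gluconeogenesis, had -1.23, and -0.98 without the HSA + SB library of set 2, which ended its call. IGFBP4, a binding protein of insulin-like growth factors, had -1.09, and its call was lost without the Fet-A library of set 2 (-0.91), that of set 3 (-0.98) or the HSA + SB library of set 2 (-0.99). Without that HSA + SB library the list had 1 member lower. Lipid synthesis genes had a median of 0.00 over 28 tested of 29 symbols, with PDK4, which restrains glucose oxidation, lower (log2 fold change -1.38).

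Part of the markers of acinar cells were lower with Fet-A. Of 26 symbols 13 were tested, 8 were lower with Fet-A (11 with the library set as a block) and the median was -2.10. CEL, a lipase and the most abundant gene of the list, had 637, 358, 285 and 33.6 CPM with Fet-A and 7023, 4713, 4475 and 1028 CPM with HSA + SB. Both treatments declined from set 1 to set 4, every Fet-A library lay below every HSA + SB library, and CEL fell, with a log2 fold change of -3.71 ± 0.93 (adjusted p = 0.00336, edgeR's quasi-likelihood test with Benjamini-Hochberg adjustment). RBPJL, a transcription factor of acinar cells, had a log2 fold change of -3.46. GP2, a membrane protein of zymogen granules, had 2 reads over the 4 Fet-A libraries and 45 over the 4 HSA + SB libraries, a ratio of 21.6 with a 95% counting interval of 5.64 to 184. That interval covers counting noise in the pooled reads only and leaves out the spread between libraries. The summed level of the 15 acinar markers found in the table was 2082, 1020.5, 917 and 142 CPM with Fet-A and 13539, 8745, 9907 and 2985 CPM with HSA + SB in sets 1 to 4. The lowest HSA + SB sum, in set 4, was still above the highest Fet-A sum, in set 1. Duct markers, 17 tested of 19 symbols, had a median of -0.10. They had 2 calls, both lower with Fet-A, beside 6.79% of all genes tested. AQP1, a water channel also found in endothelium, had 4.39, 4.14, 5.29 and 12.7 CPM with Fet-A and 37.5, 34.7, 42.1 and 52.6 CPM with HSA + SB and a log2 fold change of -2.66. ANXA4, a calcium-dependent membrane binding protein, had one of -1.17. The summed duct level was 12577, 13274, 11038 and 11469.8 CPM with Fet-A and 10849, 12143, 10849 and 10064 CPM with HSA + SB, with overlapping groups.

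**Figure D3:**
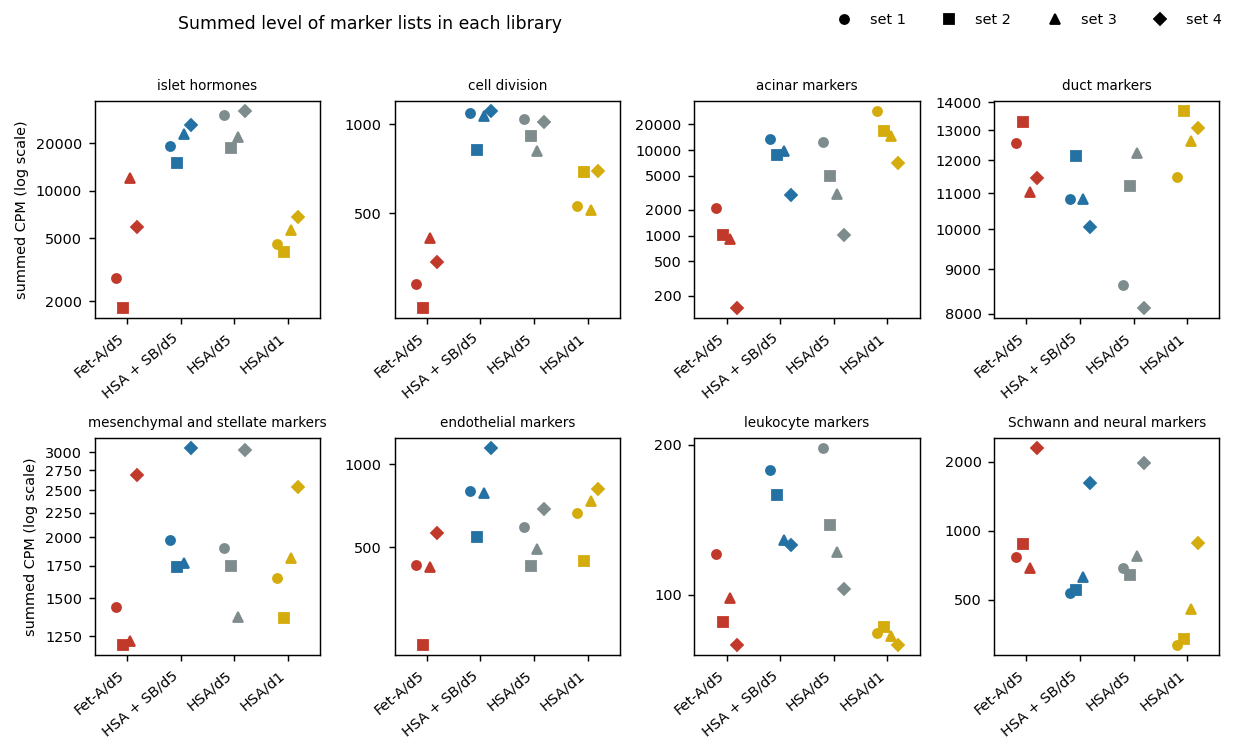
Summed CPM of the members of 8 lists that were found in the table, for each library on a log axis, with colours for Fet-A/d5, HSA + SB/d5, HSA/d5 and HSA/d1 and symbol shapes for library sets 1 to 4. For acinar markers, cell division and islet hormones all Fet-A/d5 sums lie below all HSA + SB/d5 sums, while duct sums of the 2 groups overlap.

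Mesenchymal and stellate markers, 15 tested of 19 symbols, had a median of -0.57, with 5 lower and 1 higher with Fet-A. Over all genes tested 6.79% were lower and 3.46% higher. PDGFRB, the receptor of pericytes and stellate cells, had 104, 91.4, 67.2 and 144 CPM with Fet-A and 387, 429, 301 and 428 CPM with HSA + SB. The groups did not overlap, and PDGFRB fell, with a log2 fold change of -1.93 ± 0.29 (adjusted p = 3.45e-05, edgeR's quasi-likelihood test with Benjamini-Hochberg adjustment). RGS5, a pericyte regulator of G protein signalling, and TCF21, a factor of mesenchymal progenitors, fell, with log2 fold changes of -1.73 and -1.30. DES, the muscle-type intermediate filament, had -2.83. Without the HSA + SB library of set 4 it had -2.31 (adjusted p = 0.0567, edgeR's quasi-likelihood test with Benjamini-Hochberg adjustment) and no call, and 3 members of the list were lower. The member that was higher with Fet-A, the calcium-binding protein S100A4, had 34.98, 31.5, 15.4 and 31.4 CPM with Fet-A and 13.9, 18.9, 6.798 and 9.17 CPM with HSA + SB. The groups overlapped, since the Fet-A library of set 3 lay below the HSA + SB library of set 2. S100A4 had a log2 fold change of 1.22, and its call was lost (adjusted p between 0.0522 and 0.0833 by edgeR's quasi-likelihood test with Benjamini-Hochberg adjustment) without the Fet-A library of set 1 (1.10), set 2 (1.16) or set 4 (1.17) or the HSA + SB library of set 3 (1.02) or set 4 (1.10). VIM was the most abundant of these markers, and their summed level was 1435, 1198, 1223 and 2687 CPM with Fet-A and 1973, 1736, 1768 and 3059 CPM with HSA + SB, overlapping through the set 4 library of Fet-A.

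Endothelial markers, 11 tested of 15 symbols, had 4 members lower with Fet-A and a median of -0.93; EGFL7 had no read in the 8 libraries. KDR, the main VEGF receptor, had 49.8, 32.5, 52.2 and 50.2 CPM with Fet-A and 114, 69.4, 113 and 128 CPM with HSA + SB, with separate groups and a log2 fold change of -1.20. The adhesion protein of endothelial junctions, CDH5, had one of -1.37. PECAM1, the most abundant of the list, had -1.18, and EMCN, a sialoprotein of capillaries, -1.12. Both were lost without the Fet-A library of set 2 (-0.96 and -0.88) or the HSA + SB library of set 4 (-0.95 and -0.98). The list then had 2 and 2 members lower. The endothelial sum was 431, 221, 426 and 562 CPM with Fet-A and 803, 544, 790.3 and 1147 CPM with HSA + SB. Its mean in HSA/d5 was 551 CPM. Against HSA/d5, 0 endothelial markers were called lower in Fet-A/d5, with a list median of -0.42. In HSA + SB/d5 1 was called higher and 1 lower, with a list median of 0.56. KDR was the one called higher there, at 1.04, and had -0.16 in Fet-A/d5.

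Leukocyte markers, 17 tested of 20 symbols, had 5 lower with Fet-A and a median of -0.49; CD3D had no read in the 8 libraries. ITGB2, an integrin chain of leukocytes, had 8.69, 6.204, 6.34 and 4.19 CPM with Fet-A and 18.6, 13.1, 19.04 and 16.01 CPM with HSA + SB and a log2 fold change of -1.39. FCER1G, an adaptor of Fc receptors, had -1.48, and the complement genes of macrophages C1QB and C1QA had -1.46 and -1.17. C1QA was lost without the Fet-A library of set 2 (-1.19) or set 4 (-0.92) or the HSA + SB library of set 1 (-1.11) or set 2 (-1.04), with an adjusted p of 0.0523 to 0.0869 (edgeR's quasi-likelihood test with Benjamini-Hochberg adjustment). Without the Fet-A library of set 4 or the HSA + SB library of set 1 or 2, 3 leukocyte markers were lower. LAPTM5 was the most abundant leukocyte marker, and the sums were 121, 88.5, 98.7 and 79.3 CPM with Fet-A and 178, 159, 129 and 126 CPM with HSA + SB. Schwann and neural markers, 12 tested of 13 symbols, had a median of 0.52. They had 1 call, beside 3.46% of all genes tested called higher: the neuronal filament gene PRPH, higher with Fet-A (log2 fold change 1.50). Their sums were 767, 879, 689.9 and 2295 CPM and 537, 552, 625 and 1616 CPM. Part of the acinar, mesenchymal, endothelial and leukocyte markers were thus lower with Fet-A than with HSA + SB, as were endocrine and mitotic genes. Against HSA/d5, Fet-A/d5 had 4 acinar, 7 mesenchymal, 0 endothelial and 4 leukocyte markers called lower, and 31 of the 36 cell division genes. What a change in cell types contributes to those results was not tested.

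Among called genes with a symbol, libraries that did not overlap and at least 1 CPM in every library of the higher group, the 10 largest decreases with Fet-A came from varied classes. SEMA5B, a guidance semaphorin, had 0, 0, 0.0503 and 0.155 CPM with Fet-A and 6.21, 1.84, 3.59 and 3.39 CPM with HSA + SB, and HSA/d5 had 0.181, 0.236, 0.0883 and 0.0512 CPM. The HSA + SB libraries were thus apart from both other groups, with a log2 fold change of -6.11. SFTPB, surfactant protein B, had 0.0448, 0.04700, 0.101 and 0 CPM with Fet-A and 4.61, 3.27, 3.77 and 2.91 CPM with HSA + SB and a log2 fold change of -6.07. PRSS2, a trypsinogen whose reads may be split among close paralogs, had 5.87, 2.44, 15.8 and 5.17 CPM with Fet-A and 507, 206, 792 and 341 CPM with HSA + SB. HSA/d5 had 397, 90.1, 167 and 74.9 CPM of PRSS2, and the change was a log2 fold change of -5.98 ± 0.80 (adjusted p = 7.99e-06, edgeR's quasi-likelihood test with Benjamini-Hochberg adjustment). XPNPEP2, a membrane peptidase, had 2 reads over the 4 Fet-A libraries and 163 over the 4 HSA + SB libraries, a ratio of 78.2 with a 95% counting interval of 21.3 to 651. As for GP2, the interval leaves out the spread between libraries. The complement gene C7 and AFP, alpha-fetoprotein, had log2 fold changes of -5.95 and -5.55. AFP had 1.21, 1.18, 0.705 and 0.103 CPM with Fet-A and 40.3, 72.6, 28.9 and 11.4 CPM with HSA + SB, with every set lower with Fet-A. The prion-like PRND had 1.97, 0.235, 3.93 and 1.81 CPM with Fet-A and 35.04, 16.3, 43.95 and 42.8 CPM with HSA + SB and a log2 fold change of -4.12. The remaining 3 were PPP1R14C (-4.11), an inhibitor of a protein phosphatase, CAPN6 (-4.10), a calpain family member, and the chemokine CCL19 (-3.91; log2 fold changes).

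The 10 largest increases by the same rule included PTGS2, IL1A, S100A8, S100A12 and RANBP3L, given above. MMP12, an elastase of macrophages, had 1.66, 3.24, 12.4 and 1.34 CPM with Fet-A and 0.0823, 0, 0.186 and 0.0478 CPM with HSA + SB. It was highest in the Fet-A library of set 3 and near 0 in all HSA + SB libraries, with a log2 fold change of 5.75. NEURL3, a ubiquitin ligase family member, had 90.8, 191, 96.9 and 70.96 CPM with Fet-A and 7.86, 12.3, 7.31 and 4.97 CPM with HSA + SB. HSA/d5 had 5.24, 10.02, 22.9 and 3.33 CPM of NEURL3, so the Fet-A libraries were apart from both other groups, with a log2 fold change of 3.79 ± 0.53 (adjusted p = 1.31e-05, edgeR's quasi-likelihood test with Benjamini-Hochberg adjustment). AMCF-II, a porcine neutrophil chemokine, had 62.7, 15.04, 153 and 46.1 CPM with Fet-A and 2.797, 2.76, 4.75 and 3.77 CPM with HSA + SB and a log2 fold change of 4.30. CSF3, the granulocyte growth factor, had 6.05, 4.09, 18.7 and 7.34 CPM with Fet-A and 0.535, 0.153, 0.931 and 0.143 CPM with HSA + SB and a log2 fold change of 4.32. CHI3L2, a chitinase-like protein, had 4.54. In HSA/d5 the set 3 library had 7.55 CPM of CSF3 and 7.19 CPM of CHI3L2, while its other libraries stayed under 1 CPM.

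HSA/d5 gives a common reference for the 2 treatments, with the limit that both comparisons share its 4 libraries and each shares libraries with the direct comparison. For 698 (69.2%) of the 1008 genes lower with Fet-A the mean of HSA/d5 lay between the means of the treatments, and for 745 (73.9%) it was nearer to HSA + SB. For 384 (74.7%) of the 514 higher genes it lay between them, and for 323 (62.8%) it was nearer to HSA + SB. Against HSA/d5, Fet-A/d5 had 6.29% of all tested genes lower and 1.84% higher, and HSA + SB/d5 had 1.5% lower and 0.916% higher. Of the 1008 genes, 600 were lower in Fet-A/d5 and not called in HSA + SB/d5, 97 were higher in HSA + SB/d5 and not called in Fet-A/d5, 15 were lower with Fet-A and higher with SB431542, and 292 were called in neither. Their median log2 fold change against HSA/d5 was -1.35 in Fet-A/d5 and 0.24 in HSA + SB/d5. Of the 514 genes, 186 were higher in Fet-A/d5 and not called in HSA + SB/d5, 83 were lower in HSA + SB/d5 and not called in Fet-A/d5, 16 were lower in both, 6 were higher in the first and lower in the second, and 222 were called in neither. Their medians were 0.90 and -0.60. The genes called in neither depend on the fit: with the library set as a block they were 190 of the 1008 and 172 of the 514. In that fit 609 of the 1008 were lower in Fet-A/d5 and not called in HSA + SB/d5, 137 were higher in HSA + SB/d5 and not called in Fet-A/d5, and 62 were lower with Fet-A and higher with SB431542, beside 7.48% of all tested genes lower in Fet-A/d5 and 1.81% higher in HSA + SB/d5. Of the 514, 201 were then higher in Fet-A/d5 and not called in HSA + SB/d5, and 106 were lower in HSA + SB/d5 and not called in Fet-A/d5, beside 2.24% higher in Fet-A/d5 and 2.5% lower in HSA + SB/d5.

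Single genes show both patterns against HSA/d5. KIF11 had log2 fold changes of -1.89 in Fet-A/d5 and 0.24 in HSA + SB/d5, and PCSK1 of -3.25 and -0.64. SKIL had -0.05 and -2.12, and INHBA -0.77 and -3.37. PTGS2 was called in both, at 1.98 and -3.51. AFP was also called in both, at -2.86 and 2.69, and so was LOX, at 1.23 and -1.16. COL3A1 had -2.91 and -0.98, the second not called. In several genes the HSA/d5 library of set 3 stood apart from the other HSA/d5 libraries: PDGFRB had 291, 288, 79.5 and 297 CPM and COL3A1 2051, 2391, 311 and 1794 CPM in sets 1 to 4.

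Comparisons with no library in common with the direct one were read for the same genes. From HSA/d1 to HSA/d5, 6.7% of all tested genes were higher and 2.22% lower. Of the 1008 genes lower with Fet-A, 279 (27.7%) rose and 92 (9.13%) fell over that time. Of the 514 higher genes, 89 (17.3%) rose and 25 (4.86%) fell. In the fit with the library set as a block, 1142 genes were lower with Fet-A, of which 147 (12.9%) fell from HSA/d1 to HSA/d5, beside 2.78% of all tested genes in that fit. GCG rose by a log2 fold change of 2.40 over that time, PCSK1 by 1.92, TTR by 1.84 and CDK1 by 1.22, all of them lower with Fet-A. GCG in HSA/d1 was 3441, 2947, 3787 and 4550.1 CPM, a range within which the Fet-A/d5 library of set 4 also lay. Between HSA + SB + LDN/d5 and HSA + LDN/d5, 0.586% of all tested genes were lower and 0.243% higher with SB431542. Of the 1008 genes, 32 (3.17%) were higher with SB431542 in that pair, and of the 514, 54 (10.5%) were lower with SB431542. In the blocked fit 164 (14.4%) of its 1142 lower genes were higher with SB431542 in that pair, beside 1.23% of all tested genes, and 107 (18.4%) of its 582 higher genes were lower, beside 1.37%. INHBA had a log2 fold change of -2.66 there, SMAD7 of -2.38, SKIL of -1.48 and S100A12 of -4.15, each called lower with SB431542.

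Unless a left-out library, the 2 treatments on their own or the range over alternatives is named, tests of single genes come from edgeR's quasi-likelihood model over the 24 libraries, and their p-values measure the spread between these libraries. The study states 4 islet preparations, but the labels do not assign libraries to preparations or to piglets, so how far the values extend to other animals was not tested.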

How the data were processed

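Libraries were poly-A-selected, strand-specific and sequenced as 75 bp single reads, with 4 libraries for each of 6 conditions. The authors deposited a table of whole-number read counts for 25880 genes, 4893 of them without a read throughout. The submitters' processing notes list FastQC 0.11.8, Trim Galore 0.5, STAR 2.6.1, Picard, featureCounts 1.6.2 and DESeq2 1.22.1. The genome build, the annotation and the strand setting of the counting are not given in the sources used here, so reads of overlapping genes cannot be told apart. Columns were matched to samples by their description label. For 6 of the 24 libraries, 3 of them among the 8 compared, the labels list 2 runs that share 1 column.

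Counts were analysed with edgeR 4.0.16 in R 4.3.3. Genes were kept by edgeR's filter on low counts (14842 of them), libraries were scaled by TMM, and a quasi-likelihood model with 1 coefficient per condition was fitted over all 24 libraries. P-values were adjusted by Benjamini-Hochberg over all genes tested, and a gene was called where the adjusted p was below 0.05 and the change over 2-fold in either direction. The procedure was tested on simulated data. Symbols were matched to 14857 genes of the table and to 12522 of those tested. UCN3, like PDX1 and IL1B, had no match. Some list members are not reported here by name and were left out of the screen for single libraries set apart; counts, medians and sums of lists include them.

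Library numbers in the titles run in the same order through the conditions, which gives 4 library sets. After removing group means, the correlation across genes between the Fet-A and the HSA + SB library of a set was 0.61, 0.55, 0.51 and 0.64 for sets 1 to 4, against at most 0.29, 0.20, 0.22 and 0.11 with a library of another set. The sets were used as a block in an alternative fit and for differences within sets. Between libraries of 1 group, count differences exceeded counting noise 15.1 to 70.4 times in variance.

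Gene lists and the genes to name were chosen with earlier results of these data known, and the genes the study names were chosen by it on these samples. Named are the called members of the lists, at most 4 per list and direction by smallest p, the study's genes, and the 10 largest changes in each direction among called genes with a symbol, without overlap between the treatments and with at least 1 CPM in every library of the higher group. Alternatives were other scalings, DESeq2 1.42.0 (Wald test), other filters, a fit of the compared groups only, the block, edgeR's glmTreat and leaving out each of the 8 libraries.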

Additional observations from a re-analysis of the deposited data

Results flagged for a closer look

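Among 242 groups of 4 libraries (reported genes in each treatment and library measures), 8 held 1 value farther from the rest, on the log2 scale, than Dixon's criterion for 4 values allows. Chance alone gives about 1 such group in 20. With Fet-A these were DES at 0.0470 CPM in set 2, GDF15 at 113 CPM in set 2, KDR at 32.5 CPM in set 2, S100A4 at 15.4 CPM in set 3 and SLC2A2 at 11.7 CPM in set 1. With HSA + SB they were BMP5 at 1.96 CPM in set 3, MELK at 6.80 CPM in set 2 and TPX2 at 40.9 CPM in set 2.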

How the results depend on the processing

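Over 17 alternatives no value changed direction together with its call. The 1008 genes lower with Fet-A became 298 with glmTreat, which tests against the 2-fold threshold itself and is stricter by construction, and ranged from 705 to 1142 over the other alternatives. The 514 higher genes became 108 with glmTreat and 323 with at least 10 counts in every library, a filter that removes genes absent from a treatment, and otherwise ranged from 440 to 582. With the library set as a replicate block the counts were 1142 and 582, with 1000 and 508 genes shared with the unblocked fit. Each fit's overlaps were counted among its own called genes. Of the genes lower with Fet-A, those also rising from HSA/d1 to HSA/d5 went from 279 to 8 with glmTreat. Those also falling over that time went from 92 to 147 with the block, 50 with at least 10 counts and 7 with glmTreat. Genes higher with Fet-A that rose over that time went from 89 to 45 with at least 10 counts, 51 with the compared groups only and 4 with glmTreat. The 32 genes lower with Fet-A and higher with SB431542 in the presence of LDN became 61 with DESeq2, 18 with at least 10 counts, 16 with the compared groups only, 164 with the block, 144 with the block and the compared groups only, and 2 with glmTreat. The 54 genes of the opposite kind became 107 with the block, 97 with the block and the compared groups only, and 7 with glmTreat. The cause of these shifts was not tested. Of 110 called genes that the naming rule allows, 53 were lost with glmTreat, 6 with the compared groups only and 16 when 1 library was left out, while 94 were kept in every alternative but glmTreat that fitted them (71 were fitted in all 17, and 23 were not). The block ended no call of these genes and added calls for INS, ABCC8, SYT13, GJD2 and POSTN, each with its blocked value in the text. Limits: library sets are not stated to be preparations, LDN is not identified, the annotation behind the counts is not given in the sources used here, and protein was not measured.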
